A study of Mus musculus with 12 samples.

Results

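Baz1b and Bcl7b lie next to each other in the chromosome region that is deleted in Williams-Beuren syndrome (WBS), and both encode proteins of chromatin remodeling complexes. They are described here with their closest relatives and partners, Baz1a, Baz2a, Baz2b and Smarca5 on the side of Baz1b, and Bcl7a, Bcl7c, Smarca4 and Arid1b on the side of Bcl7b. The genes were chosen by name, with no threshold on a measured value, and all 10 were found among the 17202 genes of the expression table and passed the filter on low values.

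RNA of the frontal cortex was sequenced from 12 male mice, 3 in each of 4 groups. The complete deletion (CD) mice carry, in all their cells, a heterozygous deletion from Gtf2i to Fkbp6 and so keep 1 copy of Baz1b and of Bcl7b, while wild-type (WT) mice have both copies. Per the labels, the mice are of strain C57Bl6 and 16 weeks old, and treated mice drank curcumin at 60 mg/kg/day with verapamil at 10 mg/kg/day (VERCUR) for 1 month from the age of 8 weeks. The paper gives a lower dose of verapamil, a younger age and a treatment that was kept up until sacrifice. The mice that the labels call untreated drank water with DMSO as vehicle (VEH) in the study's methods. This made 2 control groups, VEH-WT and VEH-CD, and 2 treated groups, VERCUR-WT and VERCUR-CD. The CD line had been crossed with mice that express a yellow fluorescent protein from the Thy1 promoter, and the labels do not say which of the sequenced mice carried it.

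Chromatin remodelers use ATP to slide, eject or exchange nucleosomes and so set how open the DNA of a gene is. Smarca5, also called SNF2H, is an ATPase of the ISWI family, and the BAZ proteins bind such ATPases and steer them: Baz1b, also known as the Williams syndrome transcription factor, forms the WICH complex with Smarca5, Baz1a forms ACF and CHRAC, and Baz2a forms the NoRC complex that silences ribosomal DNA repeats. Smarca4, also called BRG1, is an ATPase of the BAF complex (SWI/SNF), of which Arid1b and the small BCL7 proteins are subunits; loss of 1 copy of ARID1B in humans causes an intellectual disability syndrome.

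In the GRCm38 build with the GENCODE M21 annotation, Bcl7b lies on the plus strand at chr5:135168283-135181855 and Baz1b on the same strand at chr5:135187264-135246129, 5408 bases further on. Bcl7a is on the same chromosome at chr5:123343834-123374992, 11793290 bases before Bcl7b and outside the deletion. The other genes are on other chromosomes, Baz1a at chr12:54892989-55014348, Baz2a at chr10:128091577-128129303, Baz2b at chr2:59899363-60209839, Smarca5 at chr8:80698507-80739497, Bcl7c at chr7:127661456-127708933, Smarca4 at chr9:21616169-21704230 and Arid1b at chr17:4994332-5347656. Of the annotated genes that overlap one of the 10, only Gm15860, an antisense gene at the start of Bcl7a, was in the table, with a mean normalized count of 41.1 over the 12 mice.

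The promoters of Bcl7b and Baz1b are shown because both genes lost 1 copy and ended at nearly the same share of the wild-type level. The sequences are those of RefSeq (GRCm38.p6), plus strand, 5′ to 3′, limited to the bases before the GENCODE start of the gene. A RefSeq entry ran from 250 bases before its own start to 50 bases after it. For both genes the GENCODE start lies before the RefSeq start, so the bases next to the RefSeq start are not shown. Capitals mark the motifs that were found on either strand among the GC box GGGCGG, the CCAAT box CCAAT, the TATA box TATAAA and the E-box CACGTG, none of which overlapped another in these windows. Bcl7b is given at chr5:135168122-135168282 and Baz1b at chr5:135187073-135187263.
Bcl7b: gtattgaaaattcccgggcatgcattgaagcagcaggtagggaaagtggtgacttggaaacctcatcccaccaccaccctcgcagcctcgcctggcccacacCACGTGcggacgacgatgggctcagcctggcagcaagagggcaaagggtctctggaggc
Baz1b: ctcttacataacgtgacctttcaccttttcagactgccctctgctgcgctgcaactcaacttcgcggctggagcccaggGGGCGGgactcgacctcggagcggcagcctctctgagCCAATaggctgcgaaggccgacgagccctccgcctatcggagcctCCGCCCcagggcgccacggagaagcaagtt
The 161 bases of Bcl7b were 60.2% G or C and held 7 CG dinucleotides and 1 E-box. Windows for comparison were the first 161 bases of 32851 promoter entries, of which 30.7% held at least 7 CG and 3.2% an E-box. The 191 bases of Baz1b were 63.9% G or C and held 16 CG dinucleotides, 2 GC boxes and 1 CCAAT box. Among entries cut to their first 191 bases, 14.2% held at least 16 CG. A GC box was in 23.1% of them and a CCAAT box in 26.9%. Neither window held TATAAA, and the bases next to the RefSeq start were not searched. Promoter entries matched 8 of the 10 genes by symbol, the others being Baz1a and Bcl7a.

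Depth, from the step between low values, was 40290000 to 56480000 counted reads per mouse, so that Baz1a rested on 67 to 149 reads per mouse and each of the other 9 genes on at least 718. No 2 libraries of a group agreed within sampling noise. The library of VERCUR-CD replicate 2 stood apart: its chi-square per gene against its 2 group mates was 77.9 and 37.4, against 6.49 to 24.6 for all other pairs, and it listed 23 genes at 0 against 2 to 13 elsewhere. For Baz1b, Bcl7b and the relatives and partners named with them, log2 genotype differences over both treatments are also given without this library. So are their other log2 differences that it moved by 0.03 or more, where they are described. Differences of the other genes of the deletion, of the further remodeler genes and lists, and of the family sums are given only with it. Cortical excitatory neuron markers were present in each mouse, all 6 of 6, with a summed normalized count of 112842 to 132681. Summed markers of inhibitory neurons (6 of 6 in the table) were 42452 to 46331 in VEH-WT and 37768 to 40833 in VEH-CD. In treated mice they overlapped, at 39160 to 42647 in VERCUR-WT and 39196 to 40054 in VERCUR-CD. Markers of striatal neurons (5 of 5) summed to 2742 to 16093 and those of oligodendrocytes (6 of 6) to 74950 to 215106, and these ranges overlapped between the 4 groups. The medians differed with treatment. For striatal markers they were 6575 in VEH-WT and 6488 in VEH-CD, against 3109 in VERCUR-WT and 3319 in VERCUR-CD. For oligodendrocyte markers they were 171114 and 157418, against 122718 and 137843. No gene of the 2 lists had a positive treatment difference in either genotype, and none was called. The part of these differences in the results below was not tested. In a piece of tissue, fewer cells of a type and less RNA per cell cannot be told apart.

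Of the 10 genes, Baz1b and Bcl7b fell in CD mice, each to close to the level that 1 of 2 copies would give, and none of the 8 genes outside the deletion was called higher or lower in any comparison. A gene was called a DEG when its adjusted p in limma was under 0.05 and its log2 difference over 0.32 or under -0.42, the fold limits that the study used. By this rule 2 of the 10 genes were called in VEH-CD against VEH-WT, in which 0.257% of all 17111 tested genes were called, 2 in VERCUR-CD against VERCUR-WT with 0.146% of all genes, and 2 in CD against WT over both treatments with 0.321% of all genes. They were the same pair each time, also without VERCUR-CD replicate 2.

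Baz1b, which holds a bromodomain and a tyrosine kinase activity towards the histone variant H2A.X, had normalized counts of 4836, 5697 and 5199 in VEH-WT and of 2389, 2728 and 2495 in VEH-CD. In treated mice the counts were 5756, 5129 and 4935 in VERCUR-WT and 2431, 2642 and 2424 in VERCUR-CD. The highest CD value was below the lowest WT value, and the VERCUR-CD values lay within the range of VEH-CD. Relative to VEH-WT, the 6 CD mice had 0.456 to 0.52 of the mean level. The log2 difference was -1.05 between vehicle groups (95% interval -1.22 to -0.87, adjusted p = 2.19e-05, limma), -1.08 between treated groups (-1.25 to -0.90, adjusted p = 1.41e-05) and -1.06 over both (-1.18 to -0.94, adjusted p = 2.93e-07). Without VERCUR-CD replicate 2 it was -1.12 between treated groups and -1.08 over both.

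Bcl7b, the BAF subunit, had normalized counts of 2374, 2292 and 2328 in VEH-WT and of 1242, 1172 and 1210 in VEH-CD. It was at 2184, 2175 and 2323 in VERCUR-WT and at 1143, 1055 and 1149 in VERCUR-CD. The 2 genotypes were again fully separate, and replicates lay closer together than for Baz1b, with a coefficient of variation of 1.76% in VEH-WT against 8.24% for Baz1b. In VERCUR-CD the coefficients were nearly alike, at 4.72% for Bcl7b and 4.96% for Baz1b. The 6 CD mice had 0.453 to 0.533 of the VEH-WT mean. The log2 difference was -0.95 between vehicle groups (-1.08 to -0.82, adjusted p = 3.45e-06), -0.997 between treated groups (-1.13 to -0.87, adjusted p = 1.82e-06) and -0.97 over both (-1.06 to -0.88, adjusted p = 3.79e-08). VERCUR-CD replicate 2 held the lowest Bcl7b value, and without it the difference was -0.96 between treated groups and -0.95 over both. The 3 intervals of Bcl7b included -1, the log2 difference that loss of 1 of 2 copies would give, as did those of Baz1b.

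**Figure D1:**
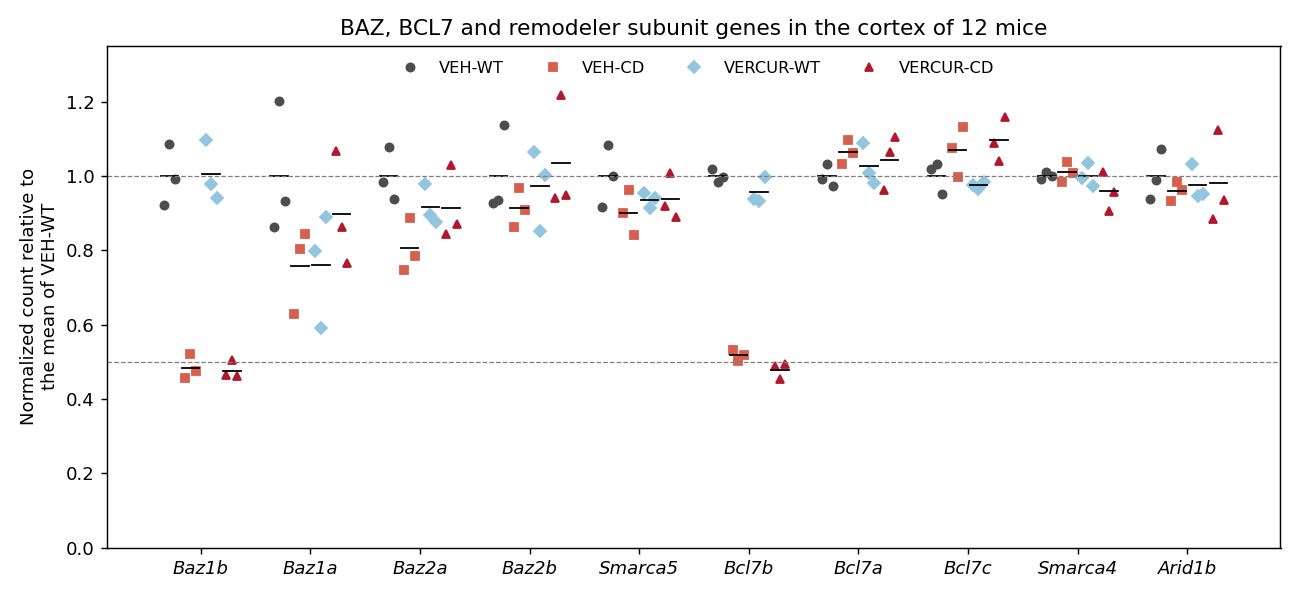
Normalized count of each gene in each of 12 mice, divided by the mean of VEH-WT (vertical axis, linear, from 0); marks are single mice, 3 in each of 4 groups, short lines are group means, and dashed lines mark 1 and 0.5. Baz1b and Bcl7b of the 6 CD mice sit between 0.453 and 0.533, while the CD mice of the other 8 genes sit between 0.628 and 1.22.

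Both genes were compared with the other 17 genes of the deleted region that were in the table, which were all called lower in CD over both treatments, with log2 differences from -1.36 to -0.69 and a median of -0.98. Ordered from the most negative difference, Baz1b was number 5 and Bcl7b number 13 of 19 in that comparison. In VEH mice they were number 4 and number 9, and in VERCUR mice number 6 and number 13. The genes whose pattern over the 12 mice, each gene scaled to its own VEH-WT mean, was closest to that of Baz1b were Tbl2 (root mean square log2 difference 0.069), Gtf2i (0.092), Bud23 (0.119), Eif4h (0.131) and Bcl7b (0.133). For Bcl7b they were Eif4h (0.053), Gtf2i (0.073), Bud23 (0.088), Abhd11 (0.098) and Stx1a (0.103), and Baz1b was number 11. All of these lie in the deletion, and the closest gene outside it was Zfp970 for both, as number 14 for Baz1b (0.211) and number 15 for Bcl7b (0.23). The measure takes in the fall in CD mice, so the closeness of genes of the deletion is not a result separate from that fall. The points of these comparisons share the same 12 libraries.

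Among the relatives of Baz1b, Baz2a had the smallest p in vehicle mice. It was at 2660, 2918 and 2539 in VEH-WT and at 2021, 2399 and 2127 in VEH-CD, so all 3 CD mice were below all 3 WT mice. Its log2 difference was -0.31 (-0.51 to -0.11, unadjusted p = 0.00486, adjusted p = 0.218), and it did not pass the test. In treated mice the values overlapped, with 2648, 2419 and 2367 in VERCUR-WT and 2282, 2787 and 2356 in VERCUR-CD and a log2 difference of -0.01 (-0.20 to 0.19). The highest VERCUR-CD value was that of replicate 2, without which the difference was -0.09. Over both treatments the difference was -0.16 (-0.30 to -0.02, adjusted p = 0.443), and -0.20 without that library (adjusted p = 0.15). With samples weighted by quality Baz2a reached an adjusted p of 0.0174 in vehicle mice at a difference of -0.33 and of 0.0184 over both treatments at -0.19, both within the fold limits of the DEG rule.

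Baz1a was the lowest of the 10 genes, at 105.4, 146.6 and 113.9 in VEH-WT and 76.6, 98.0 and 103.0 in VEH-CD. It was at 97.3, 72.2 and 108.7 in VERCUR-WT and at 130, 105.2 and 93.4 in VERCUR-CD. CD values were all below WT values in vehicle mice and overlapped them in treated mice. The log2 differences of -0.39 (-0.82 to 0.03) and 0.24 (-0.18 to 0.67) had the widest intervals of the 10 genes, and neither passed the test. Without VERCUR-CD replicate 2 the difference over both treatments went from -0.07 to -0.06. Baz2b, which also holds a bromodomain, ranged from 820.4 to 1160 in CD and from 811.4 to 1081 in WT mice, with a log2 difference of -0.02 over both treatments (-0.20 to 0.16), or -0.08 without VERCUR-CD replicate 2, its highest value.

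Smarca5, the ATPase that Baz1b, Baz1a and Baz2a share, was at 3220, 3809 and 3512 in VEH-WT and at 3161, 3383 and 2952 in VEH-CD. In treated mice it was at 3347, 3210 and 3308 in VERCUR-WT and at 3228, 3539 and 3132 in VERCUR-CD. The groups overlapped under both treatments. The log2 difference was -0.15 between vehicle groups (-0.31 to 0.01, adjusted p = 0.461). Between treated groups it was 0.003 (-0.16 to 0.16), or -0.05 without VERCUR-CD replicate 2. Over both treatments it was -0.07 (-0.19 to 0.04, adjusted p = 0.731), or -0.10 without that library (adjusted p = 0.374). With samples weighted by quality it was -0.16 between vehicle groups (adjusted p = 0.134) and -0.11 over both (adjusted p = 0.101). The ratio of Baz1b to Smarca5, both as normalized count per kilobase of exon, was 0.842 to 0.979 in the 6 WT mice and 0.425 to 0.481 in the 6 CD mice. The lower ratio holds the lower Baz1b itself and is not a separate result.

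Bcl7a and Bcl7c, the relatives of Bcl7b, had small positive log2 differences over both treatments, and neither passed the test. Bcl7a was at 5717, 5945 and 5609 in VEH-WT and at 5946, 6310 and 6121 in VEH-CD, where the lowest CD value was just above the highest WT value. In treated mice it overlapped, at 6267, 5803 and 5652 in VERCUR-WT and at 5540, 6125 and 6366 in VERCUR-CD. Its log2 difference was 0.09 between vehicle groups (-0.05 to 0.23, adjusted p = 0.601) and 0.02 between treated groups (-0.11 to 0.16). Over both treatments it was 0.06 (-0.04 to 0.15, adjusted p = 0.758), or 0.05 without VERCUR-CD replicate 2.

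Bcl7c was at 1300, 1317 and 1214 in VEH-WT and at 1373, 1274 and 1447 in VEH-CD, and these groups overlapped. It was at 1246, 1233 and 1258 in VERCUR-WT and at 1391, 1329 and 1482 in VERCUR-CD, which did not overlap. The log2 difference was 0.09 between vehicle groups (-0.05 to 0.24), 0.17 between treated groups (0.02 to 0.32, unadjusted p = 0.0291) and 0.13 over both (0.03 to 0.24, unadjusted p = 0.0178, adjusted p = 0.392). It thus failed the correction over all genes, and its fold change of 1.10 over both treatments was under the limit of the DEG rule. Without VERCUR-CD replicate 2, its lowest VERCUR-CD value, the difference was 0.21 between treated groups (adjusted p = 0.888) and 0.15 over both (adjusted p = 0.184). With samples weighted by quality, which gives less weight to libraries that vary more, the adjusted p was 0.0267 between treated groups at a difference of 0.25 and 0.0119 over both at 0.19, both still within the fold limits.

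Neither Smarca4 nor Arid1b, the larger BAF proteins of the set, passed the test. Smarca4 was at 10354, 10549 and 10441 in VEH-WT, at 10282, 10850 and 10533 in VEH-CD, at 10400, 10806 and 10162 in VERCUR-WT and at 10566, 9478 and 9997 in VERCUR-CD. Its log2 difference over both treatments was -0.02, with an interval from -0.10 to 0.06 that was the narrowest of the 10 genes, and -0.005 without VERCUR-CD replicate 2. Arid1b ranged from 4337 to 5523 in CD and from 4606 to 5264 in WT mice, with a log2 difference of -0.03 (-0.16 to 0.10). Its highest value was again that of VERCUR-CD replicate 2, without which the difference was -0.08 over both treatments (-0.18 to 0.02) and -0.10 between treated groups.

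**Figure D2:**
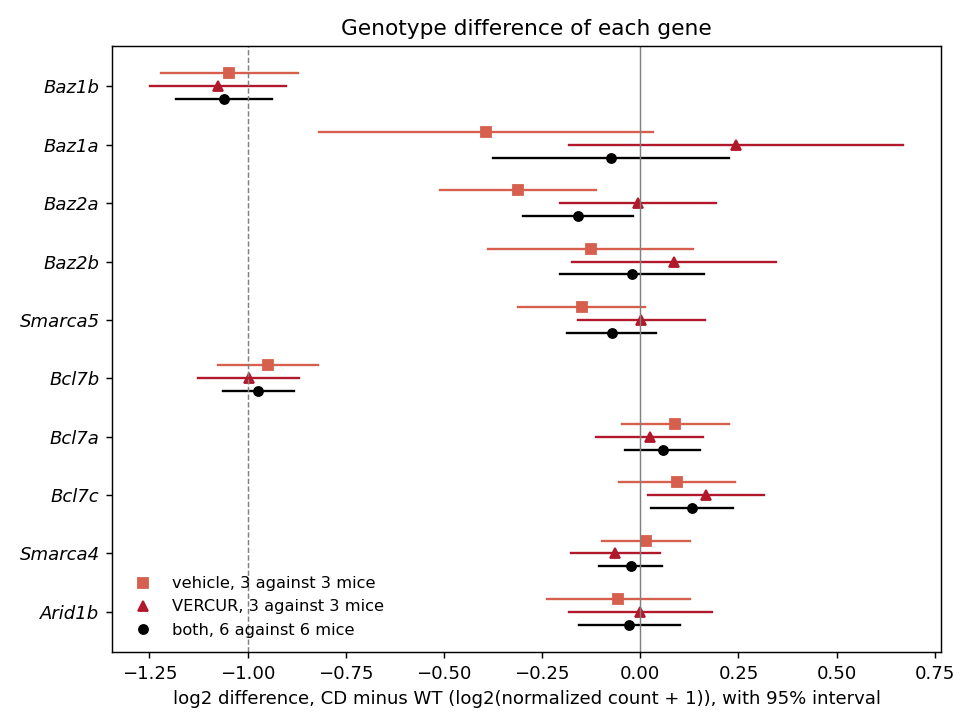
Difference of CD minus WT for each gene on the log2(normalized count + 1) scale (horizontal axis), with 95% intervals from limma, in vehicle mice (squares), VERCUR mice (triangles) and over both (circles); the dashed line marks -1. Baz1b (-1.06) and Bcl7b (-0.97) sit near -1, and the other 8 genes lie between -0.39 and 0.24.

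Counts of weaker criteria are read against all genes. At an unadjusted p under 0.05, 3 of the 10 genes passed in vehicle mice (Baz1b, Bcl7b and Baz2a) against 11.8% of all genes, 3 in treated mice (Baz1b, Bcl7b and Bcl7c) against 4.1%, and 4 over both (Baz1b, Bcl7b, Bcl7c and Baz2a) against 9.64%. CD and WT values did not overlap for 5 of the 10 genes in vehicle mice against 20.6% of all genes, for 3 in treated mice against 7.74% and for 2 in all 12 mice against 1.05%. Without Baz1b and Bcl7b, at most 3 of 8 genes remained in any of these counts.

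Seen as families, the deletion moved the balance within each. Levels were set per kilobase (kb) of annotated exon so that genes of different length could be compared. The 3 BCL7 genes summed to a mean of 1737 normalized counts per kb in 6 WT mice (range 1687 to 1770) and 1314 in 6 CD mice (1252 to 1354). The difference of -423 was made up of -465 from Bcl7b, 24.8 from Bcl7a and 16.8 from Bcl7c. Bcl7b made up 52.2% to 56.0% of the family in WT mice and 34.6% to 38.7% in CD mice, in which Bcl7a, at 46.6% to 50.9%, was the largest share. The order depends on the scaling by length: by normalized count alone Bcl7a was the largest in both genotypes, at a mean of 62.2% in WT and 70.5% in CD mice, and Bcl7b was at 24.3% and 13.5%. Since Bcl7b entered these sums, they describe its fall and are no test of the others.

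The 4 BAZ genes summed to a mean of 694.7 per kb in WT mice (651.2 to 759.8) and 468.1 in CD mice (420.5 to 533.6). Of this difference, -200.5 came from Baz1b, -24.5 from Baz2a, -0.88 from Baz1a and -0.66 from Baz2b. Baz1b made up 53.1% to 57.1% of the family in WT and 36.2% to 41.6% in CD mice, and Baz2a 33.4% to 37.2% in WT and 44.6% to 48.7% in CD mice. By normalized count alone, Baz1b had the larger mean share in CD mice too, at 43.0% against 39.6% for Baz2a. The highest BAZ sum among CD mice was that of VERCUR-CD replicate 2. Since Baz1b entered these sums, the sums and shares mainly describe its fall and are no test of the others. Baz2a itself was at a mean of 241.5 per kb in WT and 217.0 in CD mice.

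**Figure D3:**
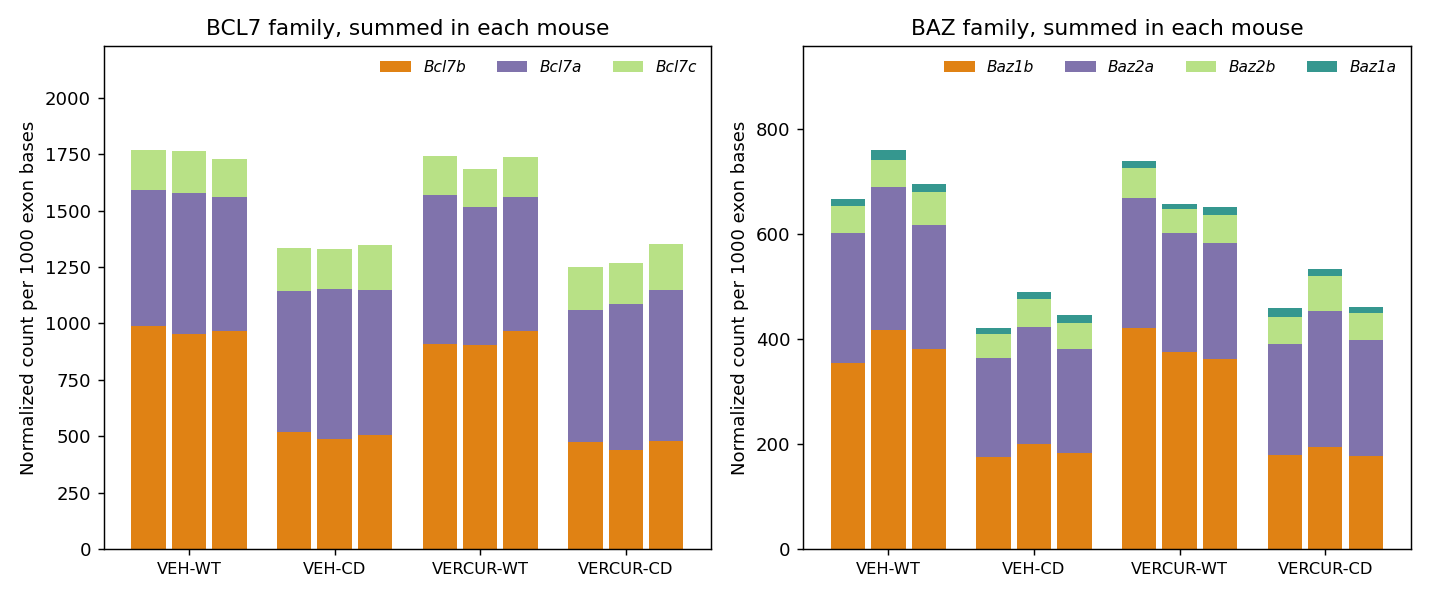
Normalized count per kb of exon (vertical axis, from 0) of the BCL7 genes (left) and the BAZ genes (right), stacked for each of 12 mice, 3 bars in each group. The BCL7 sum was 1687 to 1770 in WT and 1252 to 1354 in CD mice and the BAZ sum 651.2 to 759.8 in WT and 420.5 to 533.6 in CD mice, mainly through the lowest section, Bcl7b or Baz1b.

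The order of the 10 genes by level per kb of exon in VEH-WT was Smarca4 (1614), Bcl7b (969.7), Bcl7a (606.7), Smarca5 (451.8), Arid1b (389.8), Baz1b (383.7), Baz2a (252.1), Bcl7c (176.8), Baz2b (54.0) and Baz1a (17.0), each the mean of 3 mice. The values of Smarca5 and Arid1b overlapped, as did those of Arid1b and Baz1b, and all other neighbours were separate. Length was taken over the exons of all annotated transcripts of a gene, 2404 bases for Bcl7b and 9490 for Bcl7a, and the order depends on it. By normalized count alone Bcl7a, at a mean of 5757 in VEH-WT, stood above Bcl7b at 2331. In VEH-CD, Bcl7b (502.4) stood in the third place below Bcl7a (645.5), and Baz1b (185.7) stood in the eighth, below Baz2a (203.4) and Bcl7c (189.0), with which it overlapped. In VERCUR-CD the order of the means was the same as in VEH-CD. The ratio of Bcl7b to Smarca4 per kb was 0.542 to 0.618 in WT and 0.291 to 0.325 in CD mice. It holds the lower Bcl7b itself and is not a separate result.

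Treatment was addressed by 3 comparisons and by the interaction of genotype and treatment. By the DEG rule, 0 of the 10 genes were called in VERCUR-CD against VEH-CD, in VERCUR-WT against VEH-WT or over both genotypes, where 0% of all genes were called in each, and 0 passed an adjusted p under 0.05 for the interaction, again with 0% of all genes. At an unadjusted p under 0.05 in limma, 0 of 10 passed in CD mice against 3.54% of all genes, 0 in WT mice against 5.22%, 1 over both genotypes against 2.96% and 2 for the interaction against 6.05%. The treatment difference of Baz1b was -0.02 in CD mice (-0.19 to 0.15) and 0.01 in WT mice (-0.17 to 0.18) on the log2 scale. That of Bcl7b was -0.12 in CD mice (-0.24 to 0.01) and -0.07 in WT mice (-0.19 to 0.06), and over both genotypes it was the 1 value under 0.05, at -0.09 (unadjusted p = 0.0498, adjusted p = 1.00). Without VERCUR-CD replicate 2 the difference in CD mice was -0.06 for Baz1b (-0.25 to 0.12) and -0.08 for Bcl7b (-0.20 to 0.05). The upper ends of the intervals in CD mice correspond to a ratio of 1.11 for Baz1b, or 1.09 without that library, and of 1.01 for Bcl7b, or 1.04 without it, and they do not show that the levels were equal.

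The other 8 genes had treatment differences in CD mice from -0.08 for Smarca4 to 0.24 for Baz1a, with Baz2a at 0.18 (-0.02 to 0.38, adjusted p = 0.867) and at 0.09 without VERCUR-CD replicate 2. Without that library Smarca4 was at -0.04, Baz1a at 0.26, Baz2b at 0.05 instead of 0.17, Smarca5 at 0.01 instead of 0.06, Bcl7c at 0.08 instead of 0.04 and Arid1b at -0.08 instead of 0.02. With quality weights the difference of Baz1a in CD mice was 0.01, and that of Baz2a was 0.15 with an adjusted p of 0.0438, within the fold limits. In WT mice they ranged from -0.40 for Baz1a (-0.82 to 0.03) to 0.04 for Bcl7a. The comparisons in CD and WT mice share no sample, whereas each genotype comparison shares its mice with the treatment comparisons. The 2 genes at an unadjusted p under 0.05 for the interaction were Baz1a and Baz2a, and neither passed the correction (adjusted p = 0.816 for both). Without VERCUR-CD replicate 2 neither was under 0.05 (unadjusted p = 0.0514 and 0.0799).

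Several genes deviated together within single libraries. In VERCUR-CD replicate 2, the values of Baz1b, Baz2a, Baz2b, Smarca5 and Arid1b were the highest of the group and those of Bcl7b, Bcl7c and Smarca4 the lowest. In the same library the 10% longest genes (at least 9520 exon bases, to which 4 of the 10 genes belong) stood 0.29 higher on the log2 scale, relative to the group, than the 10% shortest (up to 1388 bases). This measure was 0.19 in VEH-CD replicate 2, in which 7 of the 10 genes were highest, 0.13 in VERCUR-WT replicate 1, in which 6 were highest, and -0.23 in VERCUR-CD replicate 1, but it was 0.05 in VEH-WT replicate 2, in which 7 were highest too. The part of this measure in the results was not tested.

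**Figure D4:**
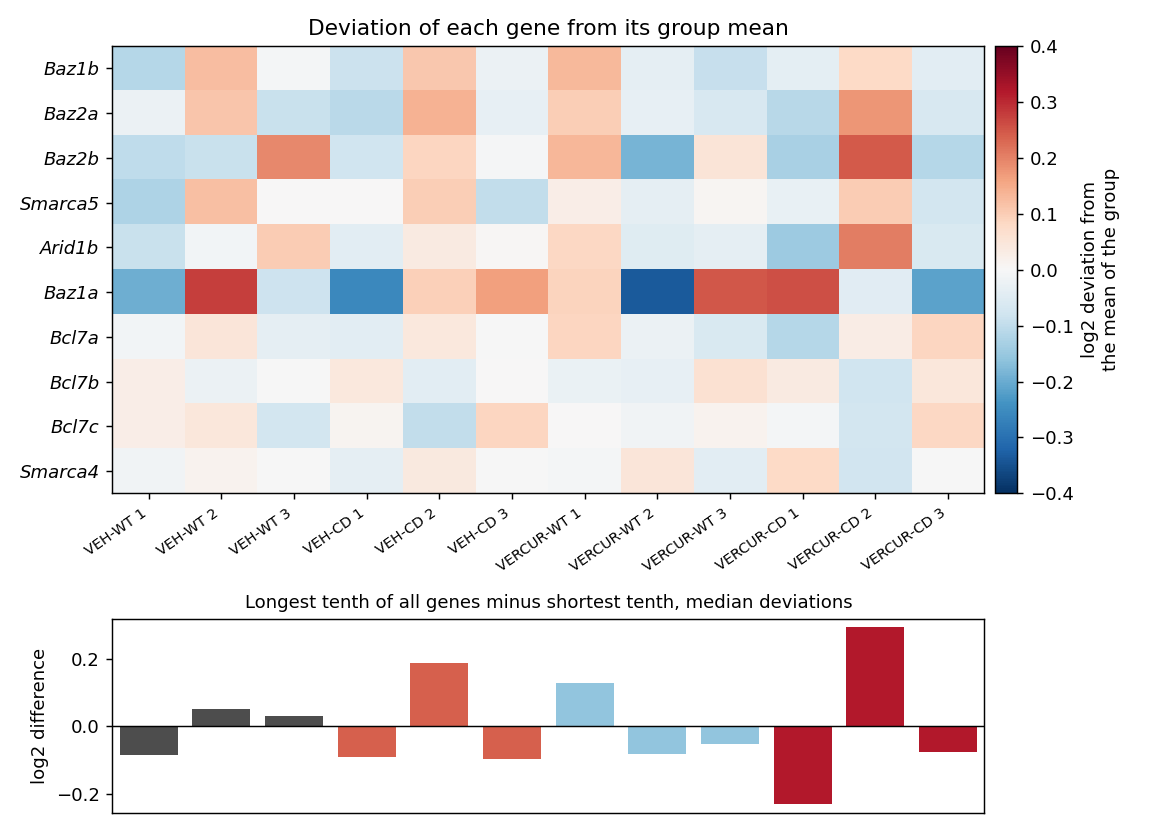
Top, log2 deviation of each gene (rows) in each of 12 libraries (columns) from the mean of its group, red for higher and blue for lower; bottom, median deviation of the 10% longest of all genes minus that of the 10% shortest, on the log2 scale. VERCUR-CD replicate 2, at 0.29, holds the highest group values of Baz1b, Baz2a, Baz2b, Smarca5 and Arid1b.

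Lists of further remodeler genes, with the 10 genes left out, gave no DEG in any of the 7 comparisons. In CD against WT over both treatments the median log2 difference was 0.06 for 8 genes of ISWI complexes, -0.02 for 25 genes of BAF complexes, -0.02 for 18 genes of NuRD and CHD remodelers, 0.02 for 21 genes of the INO80 and SRCAP family and 0.015 for 13 known partners of Baz1b, against -0.0022 for all genes. At an unadjusted p under 0.05, 1 of the 8 ISWI genes was higher, 1 of the 25 BAF genes was higher and 1 lower, 1 of the 18 NuRD and CHD genes was lower, 1 of the 21 INO80 and SRCAP genes was higher, and 1 of the 13 partners was higher and 1 lower, against 9.64% of all genes in either direction.

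The gene with the smallest p in each list had the following values. Uchl5, a deubiquitinase of the INO80 complex, had group means of 1757 and 2004 in VEH-WT and VEH-CD and of 1719 and 1957 in VERCUR-WT and VERCUR-CD, with a log2 difference of 0.19 (0.10 to 0.27, adjusted p = 0.0729). Dek, a chromatin protein found with Baz1b in the B-WICH complex, differed by 0.19 (0.09 to 0.28, adjusted p = 0.171). Pole3, a histone-fold subunit of CHRAC, differed by 0.17 (0.06 to 0.29, adjusted p = 0.282), and Smarcc2, a core BAF subunit, by 0.17 (0.07 to 0.27, adjusted p = 0.214). Gatad2a, a NuRD subunit, differed by -0.10 (-0.18 to -0.01, adjusted p = 0.444). None of the 5 passed the test.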

How the data were processed

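The authors mapped their reads with STAR 2.5.3a against GRCm38, per the labels, and deposited for every gene and mouse a normalized count, which is a count divided by 1 factor per library. The counting program, annotation and normalization method are not given in the sources used here. The deposited values are not raw counts, and 2 further tables, in which the authors set selected genes relative to their vehicle wild-type mice, were not used. In each library 100% of low values were whole multiples of 1 step (within 0.1 of a read), from which depth was taken.

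Values were taken as log2(normalized count + 1), and limma 3.58.1 (R 4.3.3) was run over 17111 genes with a mean of at least 10, with all 12 mice, 4 group means and an intensity trend, after the fit was tested on simulated data. Fold changes are on this scale, which understates those of low genes. The p-values were two-sided and Benjamini-Hochberg adjusted over all genes tested in each comparison. All 10 genes were tested and counted in every comparison, but not every log2 difference is printed. From each list of further remodeler genes the gene with the smallest p over both treatments is named. The genes and lists were chosen with earlier results of these data known. Exon lengths and positions are from GENCODE M21 and promoters from RefSeq. Python 3.11.15 made the descriptions. Nothing says whether libraries were run in batches.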

Additional observations from a re-analysis of the deposited data

Results flagged for a closer look

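For 2 of the 10 genes the CD difference of treated mice and that of vehicle mice differed at an unadjusted p under 0.05, and neither passed the correction over all genes, of which 6.05% passed the same unadjusted threshold. For Baz1a the interaction was 0.64 on the log2 scale (0.03 to 1.24, unadjusted p = 0.0399, adjusted p = 0.816, limma), from a CD minus WT difference of -0.39 in vehicle mice and 0.24 in treated mice, on 67 to 149 reads per mouse. With 1 mouse left out in turn it ranged from 0.47 to 0.76, with samples weighted by quality it was 0.33, and without VERCUR-CD replicate 2 it was 0.66 (unadjusted p = 0.0514). For Baz2a the interaction was 0.31 (0.03 to 0.58, unadjusted p = 0.0347, adjusted p = 0.816), from -0.31 in vehicle and -0.01 in treated mice. It ranged from 0.22, without VERCUR-CD replicate 2 (unadjusted p = 0.0799), to 0.38 with 1 mouse left out, and was 0.27 with quality weights.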

How the results depend on the processing

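Baz1b and Bcl7b were called, and none of the other 8 genes, in each genotype comparison under each of the 23 alternatives that gave a value, and no gene of the 10 was called for treatment or interaction. The planned tests with edgeR and DESeq2 on reads recovered from the steps were not run. Weighting samples by quality turned 3 small uncalled differences between treated genotypes, Arid1b to -0.054, Baz2b to -0.02 and Smarca5 to -0.067. It also took Baz2a and Bcl7c under an adjusted p of 0.05 within the fold limits, as given with those genes, and lowered the Baz1a interaction to 0.333. Centring on the median moved the Arid1b difference between treated genotypes to 0 from just above it. With 1 mouse left out in turn, uncalled differences crossed 0 between treated genotypes for Arid1b (-0.102 to 0.072), Baz2a (-0.094 to 0.05), Baz2b (-0.037 to 0.152), Bcl7a (-0.019 to 0.081) and Smarca5 (-0.048 to 0.04), between vehicle genotypes for Smarca4 (-0.006 to 0.033), and over both treatments for Arid1b (-0.079 to 0.008) and Baz2b (-0.082 to 0.027). Between treatments and for the interaction, only some of the differences were followed over these fits. Those that crossed 0 were of Baz1b, in CD mice (-0.063 to 0.032), in WT mice (-0.057 to 0.069), over both genotypes (-0.039 to 0.024) and for the interaction (-0.09 to 0.036), and of Bcl7a in WT mice (-0.007 to 0.067). Without VERCUR-CD replicate 2, others crossed 0 too. Arid1b went from 0.02 to -0.08 in CD mice and from 0.06 to -0.05 for the interaction. Over both genotypes, Baz2a went from 0.03 to -0.02 and Bcl7a from 0.003 to -0.004.

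Of 18 pairs of libraries with the same replicate number, 4 had a correlation of deviations over 0.1 (range -0.35 to 0.27). The median was 0.02 for the same number and -0.01 for different numbers. With 3 mice a group, these correlations cannot exclude that mice were paired. With the replicate number as a block, 2 of the 10 genes were called in each genotype comparison and 0 otherwise. The counts over all genes moved more, from 44, 25 and 55 DEGs to 354, 299 and 456 with quality weights in vehicle, treated and all mice, and from 0 to 1015 in VERCUR-CD against VEH-CD, to 3 over both genotypes and to 18 for the interaction. Over all genes in vehicle mice the count was 71 without VERCUR-CD replicate 2, 23 without VEH-WT replicate 2, 26 without VEH-WT replicate 3, and 24 without VEH-CD replicate 1 or replicate 3, and in the 3 treatment comparisons it was 0 to 3 with 1 mouse left out. With 3 mice a group and 67 to 149 reads, differences of Baz1a are the least certain.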
